A study of Mus musculus with 9 samples.

Results

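The coronal suture of unoperated Twist1+/- mice was compared with that of wild-type mice. The comparison used 6 of the 9 libraries of the series, 3 from wild type (WT) and 3 from Twist1+/- (MUT), chosen by their sample titles. Both groups were C57BL/6 mice aged 7 months whose treatment label is "No", so genotype is the labelled difference between them. The other 3 libraries (REG) were from Twist1+/- mice of the same strain and age with suture regeneration surgery at 1 month. They entered the estimate of the spread between libraries, the choice of genes tested and settings taken over all libraries, but no comparison. RNA came from collected sutures, and fewer cells of a type and less RNA per cell cannot be told apart in such bulk samples. The series' design text also mentions an induction that no label explains. The labels give the allele only as Twist1+/-, with no statement on separate animals or pooled sutures. The p-values therefore measure the spread between these libraries, which may be technical. The library of MUT replicate 2 carries the name MB4_S5, which names no group, and the title was followed.

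The coronal suture joins the frontal to the parietal bone through a band of mesenchyme with bone-forming cells at its edges. Vessels with their wall cells, nerves, dura and periosteum, macrophages, osteoclasts and nearby marrow can be sampled with it. Twist1 encodes a basic helix-loop-helix transcription factor that pairs with E-proteins and restrains bone formation in the suture. Loss of 1 copy is a known cause of early coronal fusion, the main feature of Saethre-Chotzen syndrome.

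The MUT libraries carried more background than the WT libraries. Background was read from 1353 odorant and pheromone receptor genes of nasal sensory neurons, as the median of their read density over exons. It amounted to 22.6%, 7.43% and 20.7% of the estimated reads in MUT replicates 1, 2 and 3, and to 0.593% to 0.900% in WT. MUT was also shallower, with 2945636 to 10894209 estimated reads against 16356391 to 20019712 in WT. Every gene was therefore tested on 2 scales, the deposited scaling and net RPM, which is RPM, reads per 1000000, after removal of that background in proportion to exon length. All log2 changes are MUT over WT with the standard error of the fit, and a gene was called where its adjusted p was under 0.05 (limma, Benjamini-Hochberg over all genes tested). The labels state high RNA integrity for all samples. Whether background or depth has a part in a result was not tested.

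**Figure D1:**
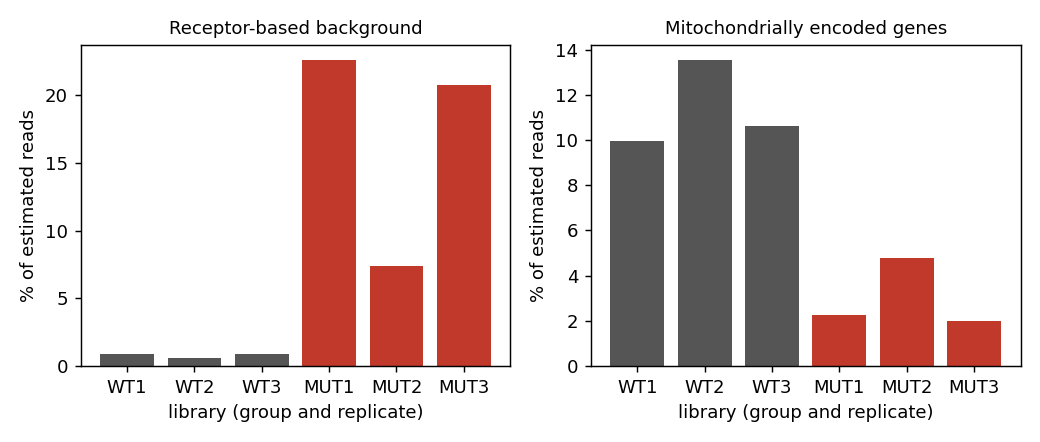
Share of estimated reads taken by the receptor-based background (left) and by the 13 mitochondrially encoded genes (right), 1 bar for each library, WT in grey and MUT in red. The 3 MUT bars are above all WT bars on the left and below all of them on the right, and MUT replicate 2 is the nearest to WT in both panels.

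The tissue label was checked against its markers. All 20 osteoblast markers lay above the 95th percentile of receptor density in all 3 WT libraries, and 14 of them did so in all 3 MUT libraries. Of 22 markers of suture mesenchyme and skeletal stem cells, 20 did so in all WT libraries, 4 in all MUT libraries, and 3 in no MUT library. Of all genes tested, 55.8% did so in all WT libraries, 11.9% in all MUT libraries and 58.1% in no MUT library. The percentile was set in each library, at 5.39 to 10.3 estimated reads per kb of exon in WT and 11.9 to 54.4 in MUT. The WT and MUT counts therefore rest on unlike thresholds.

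Twist1 checked the genotype label. It had 35.3, 44.3 and 48.5 net RPM in WT and 3.096, 28.4 and 0.443 in MUT. MUT replicates 1 and 3 lay far below WT, and replicate 2 lay nearer to WT than to them. The deposited scaling called the fall (log2 change −3.26 ± 0.76, adjusted p = 0.0109), and net RPM did not (−2.96 ± 0.93, adjusted p = 0.0522). With MUT replicate 2 as the sole MUT library the change was −0.56 in net RPM (adjusted p = 0.558), so a direction drawn from Twist1 rests on the other MUT libraries.

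In the deposited scaling 10225 of 29107 genes were called (35.1%), 5964 higher in MUT (20.5%) and 4261 lower (14.6%). In net RPM 3920 of 23644 were called (16.6%), 3088 higher (13.1%) and 832 lower (3.52%). Genes called in the same direction on both scales numbered 3376 of the 23527 tested on both (14.3%), 2605 higher (11.1%) and 771 lower (3.28%). Each list below is read against these shares. Of the 771 genes lower on both scales 84.2% were protein-coding, and of the 2605 higher 49.6% were, against 64.4% of all genes tested. Without WT replicate 1, 2 or 3 the genes called lower in net RPM numbered 245, 156 or 160, and without 1 MUT library 665 to 964. The median change of all genes was 0.18 in the deposited scaling, 0.22 in net RPM, 1.11 with total-read scaling, 0.48 with trimmed-mean scaling and −0.05 with quantile scaling. With a filter 10 times stricter it was −0.99 in the deposited scaling, so it depends on how many low genes are tested. The medians of lists are therefore given relative to the median of all genes on the same scale.

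Outside the list of matrix genes, which did not hold the matrix-binding protein gene Dpt, 10 genes had the largest falls. These were Lrrc15, Ahnak2, Dpt, C1ra, Akap2, Serpina3n, Fmo1, Ccdc3, Il11ra1 and Gvin1. They lead, by net RPM change, the 566 protein-coding genes called lower on both scales with groups that did not overlap, once 134 matrix genes, predicted genes, receptors and immune segments were left out. All 10 were above the receptor percentile in every WT library and in no MUT library. Of the 771 genes lower on both scales, 59.1% were above it in no MUT library, close to the 58.1% of all genes tested.

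Lrrc15, a leucine-rich membrane protein of activated fibroblasts and bone cells (chromosome 16, 30269302 to 30283256, GRCm38), had 81.8, 179 and 134 net RPM in WT and 5.78, 0 and 2.03 in MUT. Dpt, the small matrix-binding protein dermatopontin of connective tissue fibroblasts (chromosome 1, 164796644 to 164824266), had 51.6, 86.99 and 75.04 net RPM in WT and 1.098, 0 and 2.37 in MUT. C1ra, a serine protease of the first complement component (chromosome 6, 124512405 to 124523443), had 54.4, 102 and 79.2 net RPM in WT and 3.78, 2.17 and 0 in MUT. In each of these genes every MUT library lay far below every WT library. The deposited scaling gave log2 change −4.91 ± 0.47, adjusted p = 0.000692 for Lrrc15. It gave log2 change −5.32 ± 0.64, adjusted p = 0.00115 for Dpt and log2 change −4.65 ± 0.47, adjusted p = 0.000737 for C1ra. Ahnak2, a giant scaffold protein (chromosome 12, 112772194 to 112802657), had 33.1, 40.2 and 50.5 net RPM in WT and 0, 0 and 0 in MUT (deposited scaling: log2 change −3.12 ± 0.66, adjusted p = 0.00747). Akap2, an anchor for protein kinase A (chromosome 4, 57717657 to 57896984), had 24.7, 30.5 and 29.7 net RPM in WT and 0, 0 and 0 in MUT (deposited scaling: log2 change −2.80 ± 0.57, adjusted p = 0.00654). Both were at 0 in every MUT library once background was removed, so no net fold is given.

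Ccdc3, a secreted protein known from fat and vessel lining (chromosome 2, 5137776 to 5230878), had 50.5, 80.7 and 58.4 net RPM in WT and 6.21, 1.75 and 0 in MUT (log2 change −4.54 ± 0.70, adjusted p = 0.00187, deposited scaling −4.33 ± 0.47, adjusted p = 0.000881). Serpina3n, an acute-phase protease inhibitor (chromosome 12, 104406729 to 104414329), had 4.24, 74.2 and 144 net RPM in WT and 0, 0 and 1.33 in MUT (log2 change −4.86 ± 1.08, adjusted p = 0.0129, deposited scaling −4.27 ± 1.04, adjusted p = 0.0129). Its WT libraries ranged widely, with WT replicate 1 the lowest. Fmo1, a flavin monooxygenase (chromosome 1, 162829561 to 162866610), had 90.2, 131 and 76.5 net RPM in WT and 4.81, 9.07 and 0 in MUT (log2 change −4.65 ± 1.20, adjusted p = 0.0248, deposited scaling −4.06 ± 1.06, adjusted p = 0.0168). Gvin1, a large interferon-inducible GTPase (chromosome 7, 106156556 to 106215326), had 39.05, 17.3 and 15.1 net RPM in WT and 0, 0.0815 and 0 in MUT, and its deposited values gave log2 change −2.11 ± 0.57, adjusted p = 0.0195. Fmo1, Serpina3n and Gvin1 lost their call in some runs without 1 library. Without WT replicate 2, Fmo1 and Serpina3n had adjusted p = 0.0662 and 0.0590 in the deposited scaling. Fmo1 was also not called without MUT replicate 3 (adjusted p = 0.0614), Serpina3n without WT replicate 3 (adjusted p = 0.0524), and Gvin1 without WT replicate 1 (adjusted p = 0.0733), WT replicate 2 (0.0568) or MUT replicate 1 (0.0542). In net RPM Fmo1 kept its call only without MUT replicate 2, with adjusted p from 0.0501 to 0.0958 in the other 5 runs that left out 1 library, and Serpina3n lost it without WT replicate 2 (0.0667) or 3 (0.0625). Reads of Gvin1, Serpina3n and Il11ra1 can be shared with close copies, and how such reads were counted was not stated by the labels.

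**Figure D2:**
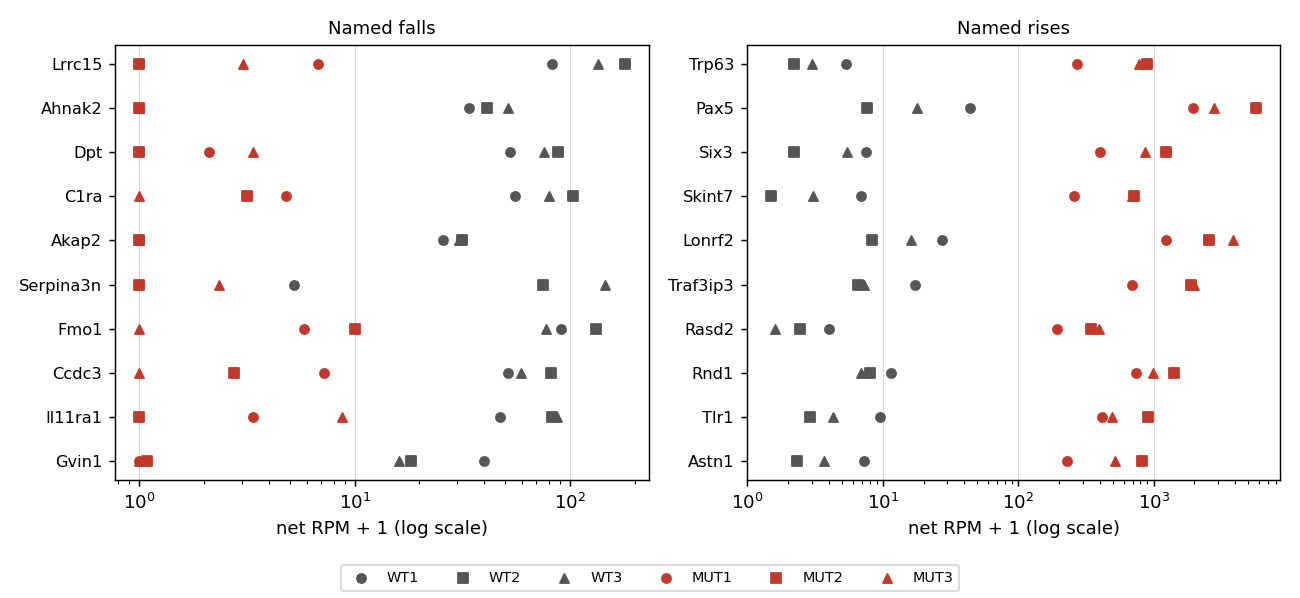
Net RPM plus 1 on a log axis for the 10 named falls (left) and the 10 named rises (right), 1 point for each library (circle, square and triangle for replicates 1, 2 and 3). In each of the 20 genes the 3 MUT points (red) lie on 1 side of the 3 WT points (grey), and points at 1 are genes with no reads left after background removal.

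Markers of the cells that wrap vessels were lower in MUT. Of 15 markers of pericytes and vascular smooth muscle 10 fell and 1 rose in the deposited scaling, and 4 fell and 1 rose in net RPM, the same 5 genes on both scales. The median of the list was −2.11 relative to all genes in the deposited scaling and −1.71 in net RPM. By library the net RPM median was −1.50, −1.30 and −1.50 in MUT replicates 1, 2 and 3 and −0.12 to 0.05 in WT. The 3 MUT libraries lay close together. The part of background, 7.43% to 22.6% of reads in these libraries, was not tested.

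Pdgfrb, the receptor through which PDGF-B draws pericytes to vessels, had 116, 173 and 175 net RPM in WT and 24.4, 21.2 and 38.97 in MUT (log2 change −2.44 ± 0.47, adjusted p = 0.00605, deposited scaling −3.50 ± 0.34, adjusted p = 0.000722). Notch3, the Notch receptor of vascular smooth muscle, had 62.4, 45.6 and 46.01 net RPM in WT and 17.5, 9.22 and 8.64 in MUT (log2 change −2.08 ± 0.55, adjusted p = 0.0268, deposited scaling −2.46 ± 0.47, adjusted p = 0.00503). Smtn, the actin-binding smoothelin, had 102, 109 and 121 net RPM in WT and 16.5, 5.27 and 46.4 in MUT (log2 change −2.68 ± 0.68, adjusted p = 0.0224, deposited scaling −3.61 ± 0.44, adjusted p = 0.00120). None of these 3 genes had a MUT library within the WT range. Tagln, the smooth muscle actin-binding protein transgelin, also fell (log2 change −3.25 ± 0.78, adjusted p = 0.0176, deposited scaling −2.67 ± 0.68, adjusted p = 0.0148). Cnn1, calponin 1, rose (log2 change 2.40 ± 0.54, adjusted p = 0.0143, deposited scaling 1.73 ± 0.34, adjusted p = 0.00523), with 0.591, 0.424 and 0.351 net RPM in WT and 4.31, 4.49 and 14.3 in MUT. The defining markers Rgs5 and Myh11 fell in the deposited scaling and were not called in net RPM (adjusted p = 0.114 and 0.0661). Without any 1 WT library 1 of the 15 markers was called lower in net RPM, and without MUT replicate 1 it was 2 of 15.

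Endothelial cells, which line the vessels, gave fewer calls: of 20 markers 6 fell in the deposited scaling and 2 in net RPM, and none rose. Sox18, a transcription factor of vessel lining, had 89.3, 50.6 and 74.1 net RPM in WT and 13.1, 0 and 7.36 in MUT (log2 change −3.85 ± 1.05, adjusted p = 0.0307, deposited scaling −4.57 ± 0.88, adjusted p = 0.00503). Plvap, which forms the diaphragms of fenestrated endothelium, had 44.4, 43.97 and 38.4 net RPM in WT and 24.04, 0.396 and 0.201 in MUT (log2 change −3.64 ± 1.11, adjusted p = 0.0481, deposited scaling −3.70 ± 0.84, adjusted p = 0.00957). In both genes MUT replicate 1 was the highest of the MUT group and still below WT. The junction molecules Pecam1 and Cdh5 fell in the deposited scaling only (net RPM adjusted p = 0.297 and 0.751). The net RPM median was −0.53, −0.83 and −0.33 in the MUT libraries. Neither net call held without MUT replicate 2, without MUT replicate 3 or without any 1 WT library. Of 9 lymphatic markers Prox1, the lymphatic master transcription factor, rose, with 1.97, 1.95 and 2.54 net RPM in WT and 65.2, 74.6 and 122 in MUT (log2 change 4.76 ± 0.51, adjusted p = 0.000348, deposited scaling 3.33 ± 0.40, adjusted p = 0.00114), Reln rose and the chemokine Ccl21a fell, and the sign of the list's median relative to all genes turned with the scaling. The Ccl21a call in net RPM was lost without MUT replicate 2, without MUT replicate 3 or without any 1 WT library.

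Receptors and binding proteins of growth factors and cytokines were among the genes lower on both scales. In the gp130 cytokine pathway, which serves the interleukin 6 family, 9 of 17 genes fell in the deposited scaling and 2 in net RPM, and none rose. Il11ra1, the interleukin 11 receptor (chromosome 4, 41699989 to 41769474), had 46.6, 81.3 and 86.2 net RPM in WT and 2.36, 0 and 7.72 in MUT (log2 change −4.50 ± 0.74, adjusted p = 0.00257, deposited scaling −4.10 ± 0.43, adjusted p = 0.000864). Cntfr, the receptor subunit for ciliary neurotrophic factor, had 49.8, 80.8 and 42.1 net RPM in WT and 5.48, 11.6 and 6.11 in MUT (log2 change −2.76 ± 0.60, adjusted p = 0.0112, deposited scaling −3.41 ± 0.58, adjusted p = 0.00316). The WT and MUT libraries of both receptors were far apart. Il6st, the shared gp130 chain, fell in the deposited scaling only, with 165, 227 and 249.6 net RPM in WT and 90.9, 28.1 and 97.1 in MUT (net RPM adjusted p = 0.0726), and the ligand Il11 was not called (log2 change 1.58 ± 0.49, adjusted p = 0.0502, deposited scaling 0.95 ± 0.39, adjusted p = 0.0821). Without WT replicate 2, 1 of the 17 genes was called lower in net RPM.

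Of 15 genes of the IGF pathway, which carries insulin-like growth signals, 9 fell in the deposited scaling and 3 in net RPM, and none rose. Igfbp5, a binding protein of bone and connective tissue, had 624, 755 and 1256 net RPM in WT and 107, 109 and 111 in MUT (log2 change −2.93 ± 0.47, adjusted p = 0.00234, deposited scaling −4.30 ± 0.43, adjusted p = 0.000737). Htra1, a secreted protease that cleaves Igfbp5, had 122, 233 and 234 net RPM in WT and 18.1, 15.3 and 12.1 in MUT (log2 change −3.56 ± 0.49, adjusted p = 0.00107, deposited scaling −4.58 ± 0.41, adjusted p = 0.000425). Igfbp2 was low in all libraries, with 4.21, 3.66 and 3.703 net RPM in WT and 0, 0 and 0.461 in MUT (log2 change −2.10 ± 0.54, adjusted p = 0.0237, deposited scaling −1.50 ± 0.43, adjusted p = 0.0242). The MUT libraries were nearly equal for Igfbp5, and far below WT for Htra1. All MUT libraries lay below all WT libraries in 10 of the 15 genes in net RPM, against 15.5% of all genes. The list's net RPM median was −1.02, −1.23 and −1.45 in the MUT libraries and −0.22 to 0.19 in WT. Without any 1 WT library 2 of the 15 stayed called lower in net RPM.

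Some genes of signals that pattern boundaries fell on both scales. In the Notch pathway 3 of 16 genes fell and 1 rose in the deposited scaling, near the 14.6% of all genes that fell there. All MUT libraries lay below all WT libraries in 18.8% of the Notch genes in net RPM, against 15.5% of all genes. The 2 that fell on both scales (3.52% of all genes fell in net RPM) were Notch3 and the ligand Jag1. Jag1 had 39.2, 55.9 and 66.7 net RPM in WT and 13.4, 10.1 and 18.9 in MUT (log2 change −1.87 ± 0.48, adjusted p = 0.0234, deposited scaling −2.59 ± 0.33, adjusted p = 0.00129). Of 15 ephrins and Eph receptors, which mark cell boundaries by contact, 9 fell and 1 rose in the deposited scaling, while 2 fell and 1 rose in net RPM. Efna5, a membrane-anchored ephrin, had 14.9, 22.5 and 26.8 net RPM in WT and 6.34, 2.09 and 4.22 in MUT (log2 change −2.15 ± 0.58, adjusted p = 0.0291, deposited scaling −2.30 ± 0.44, adjusted p = 0.00514). Epha2, an Eph receptor, had 31.4, 31.7 and 30.8 net RPM in WT and 6.15, 6.57 and 11.6 in MUT (log2 change −1.87 ± 0.51, adjusted p = 0.0294, deposited scaling −2.36 ± 0.42, adjusted p = 0.00371), and no MUT library of these 3 genes reached the WT range. Ephb2 was called higher in net RPM only (log2 change 2.14 ± 0.51, adjusted p = 0.0176). None of the Notch, ephrin and Eph calls in net RPM held without 1 WT library, whichever was left out, and 1 lower call was left in the Notch list without MUT replicate 3 and in the ephrin list without MUT replicate 2.

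The retinoic acid list, 16 genes of vitamin A signalling, split, with 5 lower and 2 higher in the deposited scaling and 2 of each in net RPM. Rdh10, which makes retinaldehyde, had 4.29, 9.65 and 15.1 net RPM in WT and 0, 0.656 and 0 in MUT (log2 change −3.03 ± 0.65, adjusted p = 0.0108, deposited scaling −1.78 ± 0.58, adjusted p = 0.0391). Rarg, a retinoic acid receptor, had 29.3, 45.4 and 42.9 net RPM in WT and 15.003, 7.97 and 9.78 in MUT (log2 change −1.77 ± 0.47, adjusted p = 0.0279, deposited scaling −2.50 ± 0.37, adjusted p = 0.00195). These 2 fell on both scales, while the receptor Rxrg rose, with 1.68, 1.16 and 0.8997 net RPM in WT and 50.1, 119 and 134 in MUT (log2 change 5.40 ± 0.53, adjusted p = 0.000258, and called in the deposited scaling too) and Stra6, the retinol uptake receptor, rose as well (log2 change 2.80 ± 0.79, adjusted p = 0.0357, deposited scaling 1.87 ± 0.52, adjusted p = 0.0207). In PDGF and VEGF signalling 7 of 19 genes fell and 1 rose in the deposited scaling. Pdgfrb fell and Pgf, placental growth factor, rose on both scales (log2 change 2.62 ± 0.65, adjusted p = 0.0213, deposited scaling 1.40 ± 0.41, adjusted p = 0.0265), while Vegfb was called higher in net RPM only (log2 change 2.21 ± 0.50, adjusted p = 0.0138). Without WT replicate 2 or 3 the retinoic acid list kept 1 higher and 0 lower calls in net RPM, and 1 of each without WT replicate 1 or MUT replicate 3, and without MUT replicate 1 it kept 1 higher and 2 lower. Without any 1 WT library the fall of Pdgfrb was the sole call of its list.

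Immediate early genes, which cells switch on within minutes of a stimulus, were lower or not called: 12 of 23 fell in the deposited scaling and 3 in net RPM. Jun, a subunit of the AP-1 transcription factor, had 67.4, 149.6 and 103 net RPM in WT and 5.97, 5.06 and 16.4 in MUT (log2 change −3.50 ± 0.57, adjusted p = 0.00250, deposited scaling −4.21 ± 0.45, adjusted p = 0.000864). Nr4a2, an orphan nuclear receptor, had 38.2, 35.8 and 28.9 net RPM in WT and 11.01, 2.95 and 15.7 in MUT (log2 change −1.92 ± 0.58, adjusted p = 0.0466, deposited scaling −2.56 ± 0.34, adjusted p = 0.00150). Dusp1, a phosphatase that ends MAP kinase signals, had 11.4, 21.2 and 14.3 net RPM in WT and 4.26, 1.801 and 4.56 in MUT (log2 change −1.90 ± 0.55, adjusted p = 0.0381, deposited scaling −2.07 ± 0.40, adjusted p = 0.00496). All 3 were below the WT range in every MUT library. Egr1 fell in the deposited scaling only (net RPM adjusted p = 0.128). Without any 1 WT library, without MUT replicate 1 or without MUT replicate 2, 1 of the 23 was called lower in net RPM, and without MUT replicate 3 it was 2 of 23.

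The circadian clock runs on a loop in which Clock and Arntl drive the Per and Cry repressors and output factors such as Dbp, Tef and Hlf through E-box sites. Of 19 clock genes 11 fell and 1 rose in the deposited scaling, and 4 fell and 1 rose in net RPM, the same 5 genes being called on both. The labels give no hour of collection. The core drivers split, since Clock fell in the deposited scaling with 30.8, 51.9 and 48.4 net RPM in WT and 7.89, 11.4 and 23.7 in MUT, and Arntl was not called (log2 change 0.38 ± 0.60, adjusted p = 0.700, deposited scaling −0.09 ± 0.46, adjusted p = 0.895). To show the site through which Clock and Arntl are known to act, promoters from RefSeq (GRCm38.p6, from 250 bases before to 50 after the start) were searched for the E-box CACGTG, which reads the same on both strands and stands in capitals. It was present in 7.15% of 32851 promoters, and in at least 1 promoter of 5 of the 16 clock genes matched by symbol (8.09% of all 27025 genes): Per1, Cry1, Tef, Bhlhe41 and Ciart. Tef has it in each of the first 2 promoters below, at positions −127 and −138 from the start, and Per1 has it at −166.
Tef (chr15:81802423-81802722, plus strand): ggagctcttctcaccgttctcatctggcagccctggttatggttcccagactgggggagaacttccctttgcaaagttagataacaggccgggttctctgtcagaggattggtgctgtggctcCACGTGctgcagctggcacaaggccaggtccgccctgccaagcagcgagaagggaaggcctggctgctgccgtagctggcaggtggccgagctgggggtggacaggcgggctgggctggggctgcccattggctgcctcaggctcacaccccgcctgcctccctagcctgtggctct
Tef (chr15:81811164-81811463, plus strand): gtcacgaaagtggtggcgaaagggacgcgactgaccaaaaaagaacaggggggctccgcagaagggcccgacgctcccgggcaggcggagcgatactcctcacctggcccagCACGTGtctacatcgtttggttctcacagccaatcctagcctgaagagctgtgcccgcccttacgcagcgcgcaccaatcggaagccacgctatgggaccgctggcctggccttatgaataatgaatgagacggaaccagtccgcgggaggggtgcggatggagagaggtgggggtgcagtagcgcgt
Per1 (chr11:69098699-69098998, plus strand): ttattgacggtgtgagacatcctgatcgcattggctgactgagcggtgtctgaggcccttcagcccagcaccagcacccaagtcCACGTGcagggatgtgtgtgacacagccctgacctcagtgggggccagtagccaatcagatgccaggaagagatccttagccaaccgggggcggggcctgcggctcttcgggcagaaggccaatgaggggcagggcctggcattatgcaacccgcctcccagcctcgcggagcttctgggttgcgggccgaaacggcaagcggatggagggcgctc

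Tef, an output factor of the PAR leucine zipper family, had 88.1, 82.3 and 79.3 net RPM in WT and 13.4, 13.9 and 10.3 in MUT (log2 change −2.65 ± 0.60, adjusted p = 0.0137, deposited scaling −3.09 ± 0.58, adjusted p = 0.00452). Its relative Hlf had 26.5, 26.2 and 17.98 net RPM in WT and 2.799, 0 and 7.205 in MUT (log2 change −2.94 ± 0.81, adjusted p = 0.0313, deposited scaling −2.23 ± 0.60, adjusted p = 0.0184). The repressor Per3 had 99.7, 90.2 and 71.1 net RPM in WT and 12.1, 28.3 and 2.599 in MUT (log2 change −2.97 ± 0.82, adjusted p = 0.0314, deposited scaling −2.90 ± 0.64, adjusted p = 0.00895). Nr1d2, the nuclear receptor Rev-erb beta, had 62.4, 54.03 and 44.7 net RPM in WT and 16.2, 19.5 and 17.3 in MUT (log2 change −1.54 ± 0.44, adjusted p = 0.0382, deposited scaling −2.39 ± 0.34, adjusted p = 0.00176). In all 4 the highest MUT library was below the lowest WT library. Bhlhe40, a helix-loop-helix repressor that also answers to hypoxia, went the other way, with 52.5, 82.6 and 89.7 net RPM in WT and 464, 969 and 651 in MUT (log2 change 3.17 ± 0.57, adjusted p = 0.00438, deposited scaling 1.67 ± 0.57, adjusted p = 0.0442). Of the 5 genes with the E-box 3 fell in the deposited scaling, and of the 11 matched genes without it 8 fell. The repressor Per2 had 1288, 1089 and 1138 net RPM in WT and 837, 3299 and 602 in MUT and was not called on either scale. No clock gene was called lower in net RPM without 1 WT library, whichever was left out, and 2 were without MUT replicate 1.

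Cells that secrete much matrix carry a large endoplasmic reticulum (ER), whose chaperones fold new proteins. Of 22 ER chaperone and unfolded protein response genes 16 fell in the deposited scaling, and 1 fell in net RPM, Xbp1, the transcription factor of this response, with 46.2, 45.8 and 57.2 net RPM in WT and 28.9, 4.42 and 6.29 in MUT (log2 change −2.26 ± 0.64, adjusted p = 0.0359, deposited scaling −3.03 ± 0.42, adjusted p = 0.00163). All MUT libraries lay below all WT libraries in 11 of the 22 genes in net RPM, against 15.5% of all genes. The net RPM median was −0.94, −1.12 and −1.16 in the MUT libraries and −0.16 to 0.18 in WT. Hspa5, the main ER chaperone BiP, had 219.6, 210.3 and 259 net RPM in WT and 137, 75.6 and 128 in MUT (log2 change −1.05 ± 0.48, adjusted p = 0.163, deposited scaling −2.47 ± 0.31, adjusted p = 0.00123). Creld2 had 19.6, 10.5 and 13.1 net RPM in WT and 5.87, 2.33 and 6.14 in MUT (log2 change −1.45 ± 0.58, adjusted p = 0.116, deposited scaling −2.24 ± 0.43, adjusted p = 0.00500). Both genes kept every MUT library below the WT range and were called in the deposited scaling only. The Xbp1 call in net RPM was lost without MUT replicate 2, without MUT replicate 3 or without any 1 WT library.

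Several genes of this list are known for a promoter element, the ER stress response element, which is printed here because 16 of the 22 genes fell in the deposited scaling. Its letters are CCAAT and CCACG with any 9 bases between them, searched on both strands of the same RefSeq promoters. It was found in 39 of 32851 promoters (0.119%), and in 7 of the 19 genes of the list matched by symbol: Hspa5, Hsp90b1, Calr, Canx, Pdia6, Dnajc3 and Creld2. All 7 fell in the deposited scaling, as did 8 of the 12 matched genes without it, and none of the 7 was called in net RPM. Matches stand in capitals. Hspa5 has 1 that begins at −65, Hsp90b1 has 2, of which the first begins at −212, and Creld2 has 1 at −126.
Hspa5 (chr2:34771840-34772139, plus strand): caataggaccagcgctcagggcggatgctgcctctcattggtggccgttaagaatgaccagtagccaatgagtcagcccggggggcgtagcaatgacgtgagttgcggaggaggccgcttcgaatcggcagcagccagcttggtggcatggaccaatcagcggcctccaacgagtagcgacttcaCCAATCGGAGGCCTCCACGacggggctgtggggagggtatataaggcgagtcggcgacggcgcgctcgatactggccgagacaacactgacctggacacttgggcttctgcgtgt
Hsp90b1 (chr10:86705395-86705694, minus strand): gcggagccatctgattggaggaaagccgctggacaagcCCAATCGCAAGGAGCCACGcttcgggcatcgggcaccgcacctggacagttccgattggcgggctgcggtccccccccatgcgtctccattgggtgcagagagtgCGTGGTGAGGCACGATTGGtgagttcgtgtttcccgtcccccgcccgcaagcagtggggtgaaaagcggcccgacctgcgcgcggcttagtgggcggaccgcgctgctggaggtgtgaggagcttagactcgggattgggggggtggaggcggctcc
Creld2 (chr15:88819396-88819695, plus strand): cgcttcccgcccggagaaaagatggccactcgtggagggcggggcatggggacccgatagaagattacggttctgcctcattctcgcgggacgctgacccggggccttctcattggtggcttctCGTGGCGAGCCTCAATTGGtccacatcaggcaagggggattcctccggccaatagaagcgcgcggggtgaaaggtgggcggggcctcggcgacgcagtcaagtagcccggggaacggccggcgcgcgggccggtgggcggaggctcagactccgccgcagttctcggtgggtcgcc

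**Figure D3:**
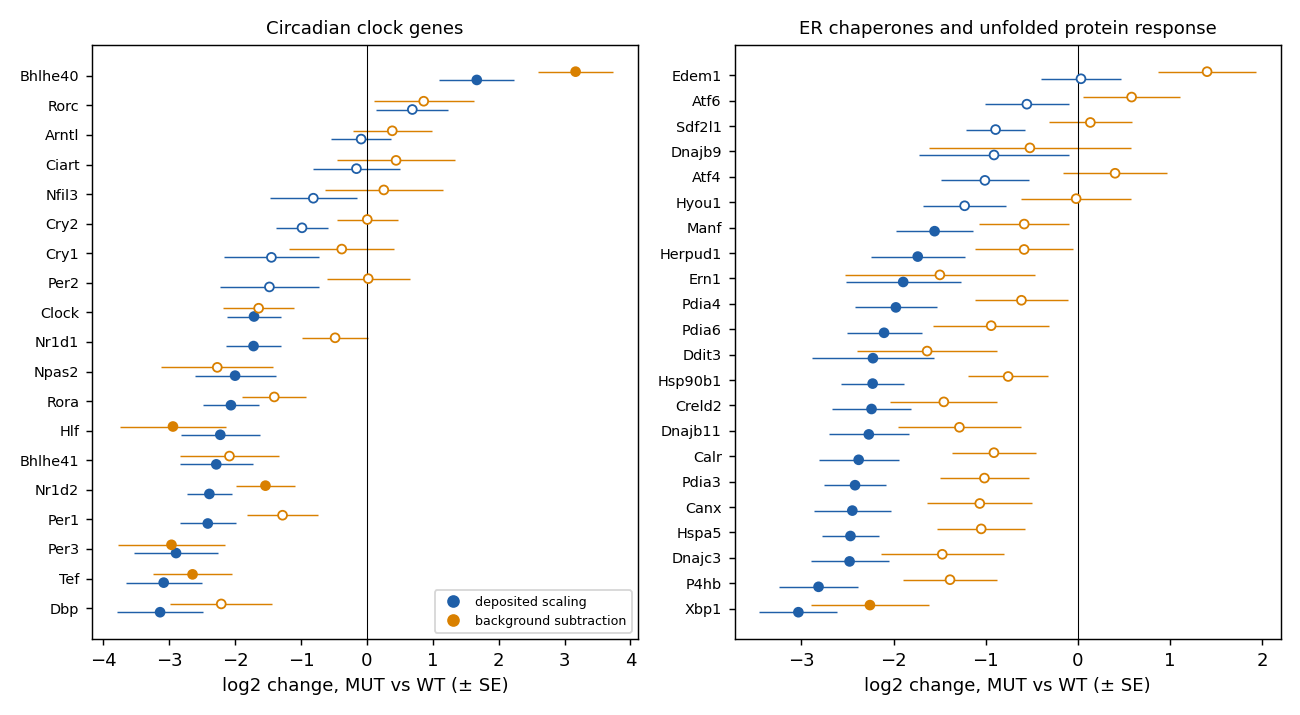
Log2 change of MUT over WT with its standard error for the 19 clock genes (left) and the 22 ER genes (right), in the deposited scaling (blue) and in net RPM after background subtraction (orange), with filled points for adjusted p under 0.05. Tef, Per3, Hlf and Nr1d2 are filled in both colours on the lower side and Bhlhe40 on the higher, while in the ER list 16 blue points and 1 orange point are filled.

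Genes of vesicle transport from the ER were lower too. Of 26 genes of COPII coats, translocation and Golgi transport 16 fell in the deposited scaling and 4 in net RPM. Golgb1, the Golgi tether giantin, had 251, 328 and 275 net RPM in WT and 73.2, 72.1 and 85.2 in MUT (log2 change −1.87 ± 0.47, adjusted p = 0.0214, deposited scaling −3.04 ± 0.42, adjusted p = 0.00160). Sec24d, a cargo-selecting coat subunit used for procollagen, had 45.2, 58.3 and 58.9 net RPM in WT and 23.9, 12.1 and 13.6 in MUT (log2 change −1.70 ± 0.49, adjusted p = 0.0366, deposited scaling −2.45 ± 0.33, adjusted p = 0.00150). Creb3l1, the ER-bound transcription factor OASIS that drives collagen secretion in osteoblasts, had 69.8, 89.9 and 102 net RPM in WT and 36.9, 28.1 and 14.8 in MUT (log2 change −1.75 ± 0.51, adjusted p = 0.0412, deposited scaling −2.94 ± 0.43, adjusted p = 0.00191). The WT and MUT libraries of the 3 genes did not overlap. The coat subunit Sec24b fell too (log2 change −1.71 ± 0.51, adjusted p = 0.0442, deposited scaling −2.91 ± 0.32, adjusted p = 0.000894), and Creb3l2 was called higher in net RPM only (log2 change 1.90 ± 0.48, adjusted p = 0.0235). No gene of this list was called lower in net RPM without 1 WT library, whichever was left out, and 2 were without MUT replicate 2 or without MUT replicate 3.

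The cytoskeleton and adhesion list followed. Of 24 genes 17 fell in the deposited scaling and 2 in net RPM. Vim, the intermediate filament of mesenchymal cells, had 539.8, 873 and 916 net RPM in WT and 146, 78.7 and 153 in MUT (log2 change −2.64 ± 0.51, adjusted p = 0.00632, deposited scaling −4.05 ± 0.35, adjusted p = 0.000401). Itgb1, the beta chain shared by most matrix integrins, had 182, 258 and 266 net RPM in WT and 99.8, 71.2 and 68.9 in MUT (log2 change −1.55 ± 0.45, adjusted p = 0.0411, deposited scaling −2.92 ± 0.40, adjusted p = 0.00153). Both were in every MUT library below every WT library. Actn1, an actin crosslinker, fell in the deposited scaling only (net RPM adjusted p = 0.0645). Without any 1 WT library or without MUT replicate 3, 1 of the 24 was called lower in net RPM.

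Of 20 osteoblast markers 10 fell in the deposited scaling and 3 of these also in net RPM, and none rose by limma. Without 1 library 4 (WT replicate 2) to 13 (MUT replicate 2) fell in the deposited scaling. Pth1r, the parathyroid hormone receptor, had 246, 275 and 289 net RPM in WT and 79.8, 28.6 and 24.7 in MUT (log2 change −2.78 ± 0.55, adjusted p = 0.00687, deposited scaling −4.07 ± 0.44, adjusted p = 0.000864). Alpl, the alkaline phosphatase of mineralization, had 95.9, 194 and 205 net RPM in WT and 76.1, 19.6 and 15.4 in MUT (log2 change −2.41 ± 0.64, adjusted p = 0.0282, deposited scaling −3.54 ± 0.51, adjusted p = 0.00183). Runx2, the master factor of osteoblasts, had 118, 187 and 171 net RPM in WT and 63.3, 39.1 and 52.1 in MUT (log2 change −1.61 ± 0.47, adjusted p = 0.0398, deposited scaling −2.74 ± 0.38, adjusted p = 0.00165). MUT lay below WT throughout in these 3 genes. Bglap, which encodes osteocalcin, was not called and was highest in MUT replicate 2, with 219, 122 and 135 net RPM in WT and 297, 2421 and 143 in MUT. The osteoblast median in net RPM was −0.79, 0.21 and −1.98 in MUT replicates 1, 2 and 3 and −0.25 to 0.19 in WT, so MUT replicate 2 stood just above the WT range and the other MUT libraries below it. Without any 1 WT library or without MUT replicate 3, 1 of the 20 markers was called lower in net RPM. Of 15 osteocyte markers 8 fell and 1 rose in the deposited scaling, and 1 fell and 2 rose in net RPM. Reln, a secreted glycoprotein that the lymphatic list holds too, rose on both scales with 12.1, 10.6 and 12.7 net RPM in WT and 109.6, 227 and 235 in MUT (log2 change 3.83 ± 0.49, adjusted p = 0.000694, deposited scaling 2.50 ± 0.40, adjusted p = 0.00262). Fgf23, the phosphate hormone of osteocytes, was called higher in net RPM only (log2 change 1.86 ± 0.55, adjusted p = 0.0408). All MUT libraries of both genes stood above all WT libraries. In each run that left out 1 library, 1 or 2 of the 15 were called higher in net RPM, while 3 (without WT replicate 2) to 8 fell in the deposited scaling. Dmp1, a matrix protein of mineralizing osteocytes, fell on both scales with 783, 732 and 645 net RPM in WT and 365, 74.4 and 144 in MUT (log2 change −2.18 ± 0.61, adjusted p = 0.03396, deposited scaling −3.64 ± 0.47, adjusted p = 0.00134). Its call in net RPM ended without MUT replicate 2, without MUT replicate 3 or without any 1 WT library.

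In the suture mesenchyme list of 22 markers Prrx1, a homeobox factor of craniofacial mesenchyme, fell with 106, 159.7 and 180.1 net RPM in WT and 60.3, 40.4 and 34.9 in MUT (log2 change −1.70 ± 0.47, adjusted p = 0.0318, deposited scaling −2.68 ± 0.37, adjusted p = 0.00161). Gli1, which marks suture stem cells and Hedgehog signalling, had 13.3, 14.7 and 11.4 net RPM in WT and 2.11, 4.11 and 2.13 in MUT and missed the threshold in net RPM (log2 change −1.94 ± 0.61, adjusted p = 0.0513, deposited scaling −1.57 ± 0.50, adjusted p = 0.0345). Zic1 rose (log2 change 4.35 ± 0.58, adjusted p = 0.000853, deposited scaling 2.85 ± 0.56, adjusted p = 0.00537), as did Grem1, a secreted BMP antagonist (log2 change 4.23 ± 0.56, adjusted p = 0.000864, deposited scaling 2.78 ± 0.58, adjusted p = 0.00707). Zic1 had 28.2, 32.3 and 36.8 net RPM in WT and 382, 795 and 1017 in MUT. Grem1 had 12.6, 7.21 and 6.21 net RPM in WT and 92.7, 261 and 214 in MUT. Every MUT library of these 2 genes lay above WT, while 15 of the 22 markers fell in the deposited scaling and the list had a net RPM median of −0.98, −0.67 and −1.46 in the MUT libraries. The call of Prrx1 in net RPM was not kept without 1 WT library, whichever was left out.

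Transcripts of the respiratory chain were read separately for the 2 genomes that encode it. Mitochondria make 13 of its proteins from their own DNA, and all others come from nuclear genes. All 13 mitochondrially encoded genes fell in the deposited scaling and 8 in net RPM. In net RPM all 13 had every MUT library below every WT library, against 15.5% of all genes. mt-Cytb, of complex III, had 1639, 2338 and 1799 net RPM in WT and 436, 549.6 and 290.01 in MUT (log2 change −2.21 ± 0.52, adjusted p = 0.0171, deposited scaling −3.72 ± 0.54, adjusted p = 0.00193). mt-Nd1, of complex I, had 807, 1270.3 and 1053 net RPM in WT and 315, 295 and 161 in MUT (log2 change −2.05 ± 0.49, adjusted p = 0.0179, deposited scaling −3.55 ± 0.50, adjusted p = 0.00163). The gene mt-Co1, of complex IV, had 2491, 3519 and 2426 net RPM in WT and 814, 736 and 702 in MUT (log2 change −1.89 ± 0.46, adjusted p = 0.0199, deposited scaling −3.40 ± 0.43, adjusted p = 0.00124). The 3 MUT libraries were close for mt-Co1 and more spread for mt-Nd1. With MUT replicate 2 as the sole MUT library 2 of the 13 were called lower in net RPM (9.28% of all genes were). Without MUT replicate 3 it was 3 of 13, and with 1 WT library left out none was, whichever it was. MUT replicate 2 had the highest mitochondrial share of the MUT group and the lowest background, and the part of background in this fall was not tested.

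The nuclear genes of the respiratory chain differed between the scales. Of 76 tested nuclear respiratory chain genes 17 fell in the deposited scaling (14.6% of all genes did), and in net RPM 1 of 75 fell and 2 rose. Their median relative to all genes was −1.11 in the deposited scaling and −0.24 in net RPM. For the mitochondrially encoded genes it was −3.50 and −2.05. Ndufb6, of complex I, was the 1 fall, with 6.52, 3.68 and 6.15 net RPM in WT and 1.83, 0.498 and 0.245 in MUT (log2 change −1.86 ± 0.50, adjusted p = 0.0295, deposited scaling −2.04 ± 0.34, adjusted p = 0.00310). Ndufa7 (log2 change 1.92 ± 0.52, adjusted p = 0.0297) and Atp5l (log2 change 2.32 ± 0.70, adjusted p = 0.0453) were the rises. None of these 3 was called in net RPM without 1 WT library, whichever was left out, or without MUT replicate 3. Summed over each list, the mitochondrially encoded genes took 11014, 15841 and 11597 net RPM in WT and 3602, 3943 and 2727 in MUT, and the nuclear ones 1142, 1228 and 1278 net RPM in WT and 1529.6, 2139 and 1485 in MUT. The nuclear sum was higher in each MUT library than in each WT library while the other sum was lower in each. The difference between the 2 lists was not tested.

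**Figure D4:**
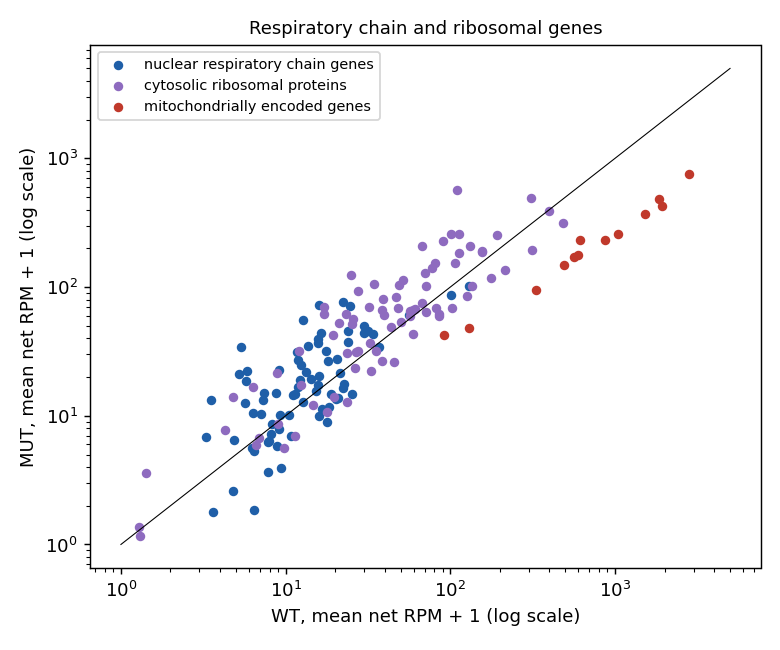
Mean net RPM plus 1 in MUT against WT on log axes, 1 point for each gene of the nuclear respiratory chain (blue), the cytosolic ribosome (violet) and the mitochondrial genome (red), with the line of equality. The 13 red points lie below the line, and the blue and violet points lie on both sides of it.

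Other housekeeping lists depended on the scale. Of 79 cytosolic ribosomal protein genes 17 fell in the deposited scaling and none was called in net RPM (limma), where 3 had an unadjusted p under 0.05, all higher. Without MUT replicate 2, 48 of the 79 fell in the deposited scaling and 4 in net RPM. Without any 1 other library 4 to 11 fell in the deposited scaling, the fewest without WT replicate 2, and without MUT replicate 1, 1 was called higher in net RPM. Their summed level was 5269, 5756 and 5889.6 net RPM in WT and 4912, 14308 and 3571 in MUT, so MUT replicate 2 was the highest of the 6 libraries and MUT replicates 1 and 3 were the lowest. Proteasome subunits fell in 7 of 33 cases in the deposited scaling and in none in net RPM, where 1 was higher and 2 were lower at an unadjusted p under 0.05. Lysosomal genes, heat shock proteins, glycolysis genes and splicing factors fell in 16 of 20, 8 of 14, 12 of 24 and 17 of 22 cases in the deposited scaling, and none of them fell in net RPM by limma, where 2, 1, 1 and 1 were lower at an unadjusted p under 0.05. In net RPM Car9, the carbonic anhydrase induced by hypoxia, rose, with 0.586, 1.29 and 1.97 net RPM in WT and 11.8, 6.68 and 34.7 in MUT (log2 change 2.78 ± 0.63, adjusted p = 0.0138, deposited scaling 1.71 ± 0.42, adjusted p = 0.0135), and the splicing factor Srsf3 was called higher (log2 change 2.69 ± 0.53, adjusted p = 0.00694). Of 22 genes of cholesterol and fatty acid synthesis 6 fell and 1 rose in the deposited scaling, and 1 fell and 3 rose in net RPM. Elovl6, a fatty acid elongase, rose on both scales (log2 change 3.17 ± 0.57, adjusted p = 0.00423, deposited scaling 1.95 ± 0.45, adjusted p = 0.0101), and Idi1, an isomerase of the cholesterol pathway, and Scd1, a fatty acid desaturase, were called higher in net RPM only (adjusted p = 0.0144 and 0.0147). In net RPM 1 gene of this list was called higher and none lower without any 1 WT library. Car9 lost its call in net RPM without WT replicate 1 or 2.

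Some lymphocyte genes were higher in MUT. B cells and their precursors live in skull marrow. Of 16 B lineage markers 3 rose in the deposited scaling, where 20.5% of all genes did. In net RPM 7 rose, where 13.1% of all genes did, and none was lower on either scale. All MUT libraries lay above all WT libraries in 13 of the 16 in net RPM, against 26.0% of all genes. Pax5, the factor that fixes B cell identity (chromosome 4, 44524757 to 44710487), had 43.1, 6.64 and 16.9 net RPM in WT and 1964, 5721 and 2774 in MUT (log2 change 7.44 ± 0.87, adjusted p = 0.000455, deposited scaling 5.89 ± 0.86, adjusted p = 0.00192). Cd22, an inhibitory receptor, had 10.1, 2.09 and 2.64 net RPM in WT and 43.9, 66.5 and 29.5 in MUT (log2 change 3.18 ± 0.60, adjusted p = 0.00566, deposited scaling 1.95 ± 0.56, adjusted p = 0.0237). Ms4a1, which encodes CD20, had 6.98, 1.01 and 1.08 net RPM in WT and 26.4, 39.4 and 26.7 in MUT (log2 change 3.28 ± 0.77, adjusted p = 0.0161, deposited scaling 2.17 ± 0.70, adjusted p = 0.0368). All 3 genes were highest in MUT replicate 2, and within WT they were highest in replicate 1. Ebf1, Rag1, Igll1 and Cd79b were called in net RPM only (adjusted p = 0.0139, 0.0215, 0.0291 and 0.0369). Cd79a, a chain of the B cell receptor complex, was not called, with 10.7, 1.13 and 3.61 net RPM in WT and 23.8, 27.8 and 16.8 in MUT.

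Pax5 took most of the summed B cell level in MUT. The 16 genes summed to 206, 80.03 and 94.3 net RPM in WT and 2433, 6650.3 and 3395 in MUT. Without Pax5 the sum was 162.6, 73.4 and 77.4 in WT and 468, 929 and 621 in MUT, so the sum of the other 15 markers also stood higher in each MUT library than in each WT library. The number of B cell genes called higher in net RPM was 2 without WT replicate 2, 2 without WT replicate 3, and 5 to 7 without WT replicate 1 or any 1 MUT library. Of 14 T and natural killer cell markers 2 rose in the deposited scaling, where 20.5% of all genes did, and of the 11 tested in net RPM 4 were higher. Cd3g, a chain of the T cell receptor complex, had 0.7404, 0.7898 and 1.43 net RPM in WT and 50.4, 16.5 and 38.5 in MUT (log2 change 4.07 ± 0.63, adjusted p = 0.00185, deposited scaling 2.78 ± 0.48, adjusted p = 0.00338). Cd28, its co-stimulatory receptor, rose on both scales too (log2 change 2.29 ± 0.52, adjusted p = 0.0138, deposited scaling 1.77 ± 0.37, adjusted p = 0.00704), while Cd3e, another chain of the complex, was not called (log2 change −0.09 ± 0.59, adjusted p = 0.939, deposited scaling −0.46 ± 0.48, adjusted p = 0.482). Without WT replicate 2 or 3, 1 of the 11 was called higher. Of the 16 T and natural killer cell genes 10 lay above the receptor percentile in no MUT library, against 58.1% of all genes tested.

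Markers of red cells and granulocytes gave no lower call. Of 17 erythroid markers none was called in the deposited scaling by limma (2 were lower at an unadjusted p under 0.05), and 4 were higher in net RPM. Hbb-bs, a beta globin, had 507, 133 and 323 net RPM in WT and 1468, 1643 and 1192 in MUT (log2 change 2.34 ± 0.62, adjusted p = 0.0273). Alas2, the first enzyme of erythroid heme synthesis, had 53.5, 20.3 and 39.5 net RPM in WT and 126, 96.9 and 113 in MUT (log2 change 1.64 ± 0.50, adjusted p = 0.0469). Hba-a2 and Hbb-bt were the others (adjusted p = 0.0472 and 0.0463). The globins of MUT lay above WT, although globin genes share reads with close copies. None was called without WT replicate 2, WT replicate 3 or MUT replicate 1, and 1 was without WT replicate 1 or MUT replicate 3. The sign of the erythroid median relative to all genes turned with the scaling (−0.02 in the deposited scaling, 1.26 in net RPM). None of 16 neutrophil markers was called on either scale by limma, and at an unadjusted p under 0.05 there were 0 in the deposited scaling and 4 in net RPM, all higher. Their median was 0.93, 1.10 and 0.66 in the MUT libraries and −0.97 to 0.88 in WT, so that the WT libraries themselves were far apart. The granule proteins S100a8 and S100a9 had 231, 136 and 45.2 net RPM in WT and 444, 792 and 468 in MUT for S100a8 and 545, 292 and 107 net RPM in WT and 734, 2643 and 727 in MUT for S100a9.

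Histone genes, which dividing cells use, were called higher mainly in net RPM. Of 62 replication-dependent histone genes tested there 13 rose, where 13.1% of all genes did, and none fell. In the deposited scaling 2 of 64 rose and 1 fell, fewer than the 20.5% and 14.6% of all genes that did. Hist1h4h, a histone H4 gene, had 24.5, 8.14 and 26.6 net RPM in WT and 137, 242 and 131 in MUT (log2 change 3.14 ± 0.66, adjusted p = 0.00943). Hist2h2aa1, the histone gene called on both scales, had 3.51, 7.998 and 10.2 net RPM in WT and 63.4, 345 and 73.4 in MUT (log2 change 3.95 ± 0.69, adjusted p = 0.00365, deposited scaling 2.50 ± 0.80, adjusted p = 0.0354). MUT replicate 2 was the highest for both, and the list's net RPM median was 1.20, 2.91 and 0.79 in MUT replicates 1, 2 and 3. Without WT replicate 1, 2 or 3, 5, 1 or 2 histones were called higher in net RPM, and without MUT replicate 2 there were 8. Of 25 cell cycle genes none rose and Ccne2, cyclin E2, fell in the deposited scaling by limma, with 1 higher and 1 lower at an unadjusted p under 0.05. In net RPM 2 were called higher, where 13.1% of all genes were, and none lower. These were Rrm2, a subunit of ribonucleotide reductase, and Ccna2, cyclin A2 (adjusted p = 0.00784 and 0.0482). Without WT replicate 2 neither was called, and without WT replicate 1 or 3, 1 was. Mki67, the proliferation marker, had 319, 149 and 197 net RPM in WT and 441, 1162 and 746 in MUT (log2 change 1.78 ± 0.58, adjusted p = 0.0603). All MUT libraries lay above all WT libraries in 17 of the 25 in net RPM, against 26.0% of all genes. The sign of this list's median relative to all genes turned with the scaling. Histone genes have near-identical copies between which reads can be split.

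Macrophages and their relatives gave few calls in net RPM. Of 17 macrophage markers 8 fell in the deposited scaling and 1 in net RPM, and none rose by limma. Without WT replicate 2 or 3, 4 or 5 fell in the deposited scaling and none in net RPM. Adgre1 was not called on either scale, Csf1r, the receptor that macrophages need, fell in the deposited scaling only, and C1qa had 16.99, 17.8 and 16.8 net RPM in WT and 6.09, 8.85 and 4.88 in MUT (net RPM adjusted p = 0.118). Of 16 osteoclast markers 5 fell and 1 rose in the deposited scaling. The rise was Ostm1, a partner of the lysosomal chloride channel, which was also called in net RPM with 26.8, 25.2 and 28.2 net RPM in WT and 135, 365 and 334 in MUT (log2 change 3.20 ± 0.52, adjusted p = 0.00234, deposited scaling 1.76 ± 0.51, adjusted p = 0.02497), while Nfatc1, the master factor of osteoclasts, fell in the deposited scaling only (net RPM adjusted p = 0.131). Genes of antigen presentation by MHC class II (5 of 10 lower) and class I (6 of 13 lower, 1 higher) were called in the deposited scaling, and in net RPM the peptidase Erap1 was the sole call of either list, higher (log2 change 2.48 ± 0.58, adjusted p = 0.0167), and it was lost without any 1 WT library. No MHC class II gene had an unadjusted p under 0.05 in net RPM. Of 20 interferon-stimulated genes 2 rose and 2 fell in the deposited scaling. Oasl2 rose on both scales, with 8.63, 7.79 and 10.8 net RPM in WT and 62.6, 68.1 and 114 in MUT (log2 change 2.99 ± 0.50, adjusted p = 0.00288, deposited scaling 1.65 ± 0.37, adjusted p = 0.00969), while the rise of Ifi44 and the falls of Ifit3 and Ifih1 were not called in net RPM (adjusted p = 0.0552, 0.182 and 0.210). Of 22 chemokine and receptor genes 1 rose and 3 fell in the deposited scaling. The rise was Ccl6, a chemokine of myeloid cells, which rose on both scales with 25.8, 10.6 and 11.9 net RPM in WT and 151, 393 and 158 in MUT (log2 change 3.74 ± 0.63, adjusted p = 0.00297, deposited scaling 2.27 ± 0.67, adjusted p = 0.0269). The falls, of Ccl19, Cxcl12 and Cxcl14, were not called in net RPM (adjusted p = 0.135, 0.944 and 0.267), and the sign of that list's median turned in net RPM.

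Genes known from epithelium, brain and lymphocytes were among the largest rises, again 10: Trp63, Pax5, Six3, Skint7, Lonrf2, Traf3ip3, Rasd2, Rnd1, Tlr1 and Astn1. They lead, by net RPM change, the 1025 protein-coding genes called higher on both scales with groups that did not overlap. Trp63, the p63 factor of stratified epithelium (chromosome 16, 25683763 to 25892102), had 4.36, 1.21 and 2.01 net RPM in WT and 269, 893 and 780.1 in MUT (log2 change 7.44 ± 0.63, adjusted p = 0.000167, deposited scaling 5.83 ± 0.62, adjusted p = 0.000864). Six3, a forebrain and eye factor (chromosome 17, 85613608 to 85629302), had 6.58, 1.203 and 4.45 net RPM in WT and 398, 1231 and 863 in MUT (log2 change 7.38 ± 0.77, adjusted p = 0.000325, deposited scaling 5.84 ± 0.75, adjusted p = 0.00134). Traf3ip3, a lymphocyte adaptor (chromosome 1, 193175453 to 193201703), had 16.4, 5.596 and 6.26 net RPM in WT and 689.7, 1887 and 1990.2 in MUT (log2 change 7.19 ± 0.59, adjusted p = 0.000144, deposited scaling 5.66 ± 0.59, adjusted p = 0.000863). No WT library of these genes came near a MUT library. Skint7, a thymus and skin gene, had 5.904, 0.497 and 2.08 net RPM in WT and 259, 719 and 686 in MUT. Tlr1, a receptor for bacterial lipopeptides, had 8.58, 1.89 and 3.27 net RPM in WT and 418, 907 and 495 in MUT. Astn1, a neuronal adhesion protein, had 6.27, 1.32 and 2.705 net RPM in WT and 230.01, 821 and 519.9 in MUT. Log2 changes of the 10 in net RPM ran from 6.86 to 7.44.

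The 10 rises shared an order of libraries that the choice of genes did not require. In the deposited values MUT replicate 2 was the highest and MUT replicate 1 the lowest in 10 of 10, and WT replicate 1 was the highest of WT in 10 of 10. In net RPM, MUT replicate 3 stood above MUT replicate 2 in Lonrf2, Traf3ip3 and Rasd2, so the order of these libraries moved with the scaling. In the deposited values the full order of MUT replicate 2, 3, 1 together with WT replicate 1, 3, 2 held in 8 of the 10, and in 3.26% of all genes tested and 11.3% of the genes called higher on both scales. All 10 lay above the receptor percentile in every MUT library, 6 of them also in every WT library. In the same libraries MUT replicate 2 had the lowest background of the MUT group and the fewest reads, and whether these values are linked was not tested. All 10 were called with MUT replicate 2 as the sole MUT library on both scales, and in each run that left out 1 WT or MUT library.

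Some markers of tissues outside the suture also rose. Of 16 neuron and astrocyte markers 8 rose and 1 fell in the deposited scaling, and 4 rose in net RPM: Rbfox3, a nuclear marker of neurons, Stmn2, Gad2 and Dcx. Rbfox3 had 3.402, 0.692 and 1.32 net RPM in WT and 129, 218 and 298 in MUT (log2 change 6.31 ± 0.61, adjusted p = 0.000253, deposited scaling 4.77 ± 0.53, adjusted p = 0.000894). Gad2, an enzyme of GABA synthesis, had 3.205, 1.66 and 1.58 net RPM in WT and 18.96, 31.1 and 20.3 in MUT (log2 change 2.96 ± 0.54, adjusted p = 0.00468, deposited scaling 1.96 ± 0.45, adjusted p = 0.0105). The second defining marker Snap25 had 1.002, 0.108 and 0.443 net RPM in WT and 12.2, 9.82 and 0 in MUT and was not called in net RPM (adjusted p = 0.212). Of the 16 markers 11 lay above the receptor percentile in no MUT library, against 58.1% of all genes tested. Of 15 keratinocyte markers 8 rose and 1 fell in the deposited scaling, and of the 11 tested in net RPM Trp63, Sfn, Pkp1 and Krt80 rose. Without MUT replicate 2 the number was 7. The keratins Krt5 and Krt14 define basal keratinocytes. Krt5 had 2.02, 0 and 1.29 net RPM in WT and 2.73, 0 and 2.902 in MUT. Krt14 had 0.0584, 0 and 0.131 net RPM in WT and 2.38, 0 and 6.01 in MUT. Of the 15 keratinocyte markers 10 were above the receptor percentile in no MUT library, against 58.1% of all genes tested.

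The remaining lists gave 3 calls or fewer in net RPM in either direction. Myl1, a fast muscle light chain, rose on both scales from 0.438, 6.36 and 1.35 net RPM in WT and 88.9, 35.7 and 160.5 in MUT (log2 change 4.80 ± 1.17, adjusted p = 0.0192, deposited scaling 3.36 ± 1.06, adjusted p = 0.0337), alone among 20 contractile genes, of which 1 fell in the deposited scaling. Of 8 myogenic factors and satellite cell genes 3 rose in the deposited scaling: Myog and Myf6, factors of muscle differentiation, and Chrna1, a subunit of the muscle acetylcholine receptor. Pax7, the satellite cell factor, fell there (net RPM adjusted p = 0.255). The list's median was 0.61 relative to all genes in the deposited scaling. None of its 6 genes tested in net RPM was called by limma, and 0 had an unadjusted p under 0.05. None of the 8 was called in the deposited scaling without any 1 WT library. Of the adipocyte markers 3 of 15 rose there, of the Schwann cell markers 1 rose and 2 fell of 15, of the meningeal markers 3 rose and 5 fell of 16, of the mast cell markers 2 rose and 1 fell of 10, and of the chondrocyte markers 1 rose and 3 fell of 16. Cidec, a lipid droplet protein of fat cells, rose on both scales (log2 change 4.33 ± 1.04, adjusted p = 0.0179, deposited scaling 3.07 ± 0.78, adjusted p = 0.0152), and the adipocyte markers Adipoq and Plin1 were not called on either scale. Pmp22, a myelin protein, fell on both scales with 21.1, 35.4 and 33.2 net RPM in WT and 6.55, 11.5 and 4.13 in MUT (log2 change −1.94 ± 0.59, adjusted p = 0.0458, deposited scaling −2.62 ± 0.51, adjusted p = 0.00530), and Ngfr, the low-affinity nerve growth factor receptor, rose (log2 change 2.27 ± 0.59, adjusted p = 0.0254, deposited scaling 1.53 ± 0.51, adjusted p = 0.0401). In the meningeal list Mgp, a calcification inhibitor, fell with 57.3, 104 and 124 net RPM in WT and 11.4, 10.2 and 7.22 in MUT (log2 change −3.13 ± 0.50, adjusted p = 0.00233, deposited scaling −4.22 ± 0.44, adjusted p = 0.000816), Lama2, a laminin chain, fell (log2 change −1.90 ± 0.54, adjusted p = 0.0353, deposited scaling −2.15 ± 0.47, adjusted p = 0.00812), and Zic1 rose. Tpsab1, a mast cell tryptase, rose on both scales (log2 change 1.68 ± 0.46, adjusted p = 0.0314, deposited scaling 1.54 ± 0.32, adjusted p = 0.00719). In net RPM no Schwann cell, adipocyte or mast cell gene was called without any 1 WT library, and none of the contractile genes without WT replicate 1 or 3 or without MUT replicate 3. None of 11 megakaryocyte and none of 15 chondrocyte markers was called in net RPM by limma, with 1 of each higher at an unadjusted p under 0.05, and the signs of the muscle, fat, meningeal and megakaryocyte medians relative to all genes turned with the scaling.

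Across the 48 lists other than the matrix, the sign of the median relative to all genes was the same in all 5 scalings for 39. It was negative throughout for 32 of them, among which the vessel wall, IGF, clock, ER and mitochondrially encoded lists were named above, and positive throughout for 7. It turned in at least 1 scaling for 9. With a filter 10 times stricter the median of all genes was −0.99 in the deposited scaling, against 0.18, and the signs were not recomputed there. The nuclear respiratory chain and proteasome lists, negative throughout, had medians near that value (−0.94 and −1.03, not relative to all genes). Further lists negative throughout had such medians above −0.99. These were interferon-stimulated genes (−0.35), chondrocytes (−0.37), cholesterol and fatty acid synthesis (−0.48) and Schwann cells (−0.58). The Notch (−0.74), retinoic acid (−0.76) and PDGF and VEGF (−0.84) lists were the others. A negative sign therefore depends in part on how many low genes are tested. Net RPM medians of single libraries were taken minus the median of all genes in that library. That median was 0.39, −0.15 and 0.55 in MUT replicates 1, 2 and 3. So taken, all 3 MUT libraries lay below all 3 WT libraries in 7 cell type and 17 pathway lists. They lay above WT in 6 and 2 and overlapped with WT in 9 and 7. Before that step some of the lists counted as below overlapped with WT. The endothelial median was then 0.22 in MUT replicate 3 and at most 0.09 in WT. The Notch median was 0.26 in MUT replicate 1 and at most 0.15 in WT.

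**Figure D5:**
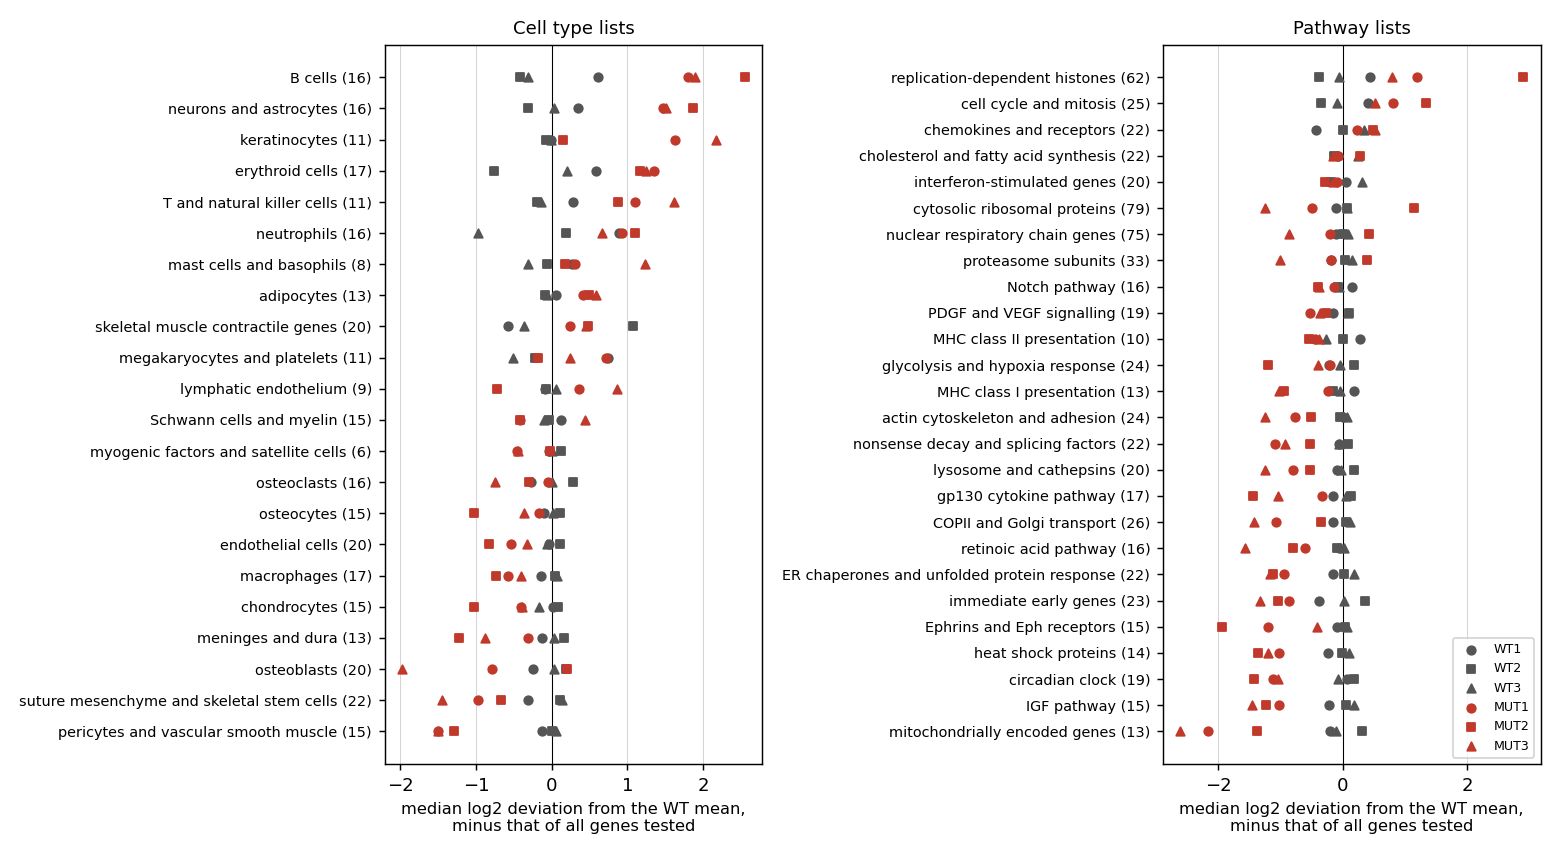
Median deviation of each list's members from the WT mean of log2(net RPM + 1), minus that of all genes tested, 1 point for each library, for the 22 cell type lists (left) and 26 pathway lists (right), with the number of members tested in parentheses. The MUT points (red) lie well below the WT points (grey) for the mitochondrially encoded genes and well above them for B cells and histones, where MUT replicate 2 (square) is the highest.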

How the data were processed

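The submitters' processing notes name STAR 2.6.1d, Partek and mm10. How reads were counted and normalized was not stated in the labels or headers. The deposited signal values of 43644 genes were scaled by the authors. From the values themselves they share a 75th percentile near 2.76 and rise in steps of a lowest value per library, with fractions between, so they were not treated as counts. Genes were named by the order of the authors' deposited gene table, whose summary scores (total, maximum, geometric and arithmetic mean) matched the matrix for 43644 of 43644 genes within 1e-06. That table also holds the authors' p-values, least-squares signal means and log2 ratios, which were not used for tests.

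Each value was divided by the lowest one of its library and reduced by 1 to estimate reads. Exon lengths came from GENCODE M21 (42972 genes). Net RPM was the estimated reads minus the receptor background density times exon length, set to 0 where negative, per 1e+06. limma 3.58.1 in R 4.3.3 was fitted to all 9 libraries on log2(value + 0.367) for genes that reached 0.367 in 3 or more libraries, and for net RPM on log2(net RPM + 1). P-values are two-sided with Benjamini-Hochberg adjustment. No permutation test was used, since none of 3 against 3 libraries could pass the threshold. The fit was tested on simulated data. For the 29107 genes of the deposited scaling it recovered 0% of 2-fold and 26% of 4-fold changes. It recovered 62% of 8-fold and 82% of 16-fold changes. A gene that was not called is therefore not shown to be unchanged. Python 3.11.15 made the tables.

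The libraries, the gene lists and the rule for named genes were chosen with earlier results of these data known. The rule takes Twist1, the 10 largest falls and rises described in the text, up to 4 members of smallest p in each list and the first 2 genes of each cell type list. Some genes outside it (Arntl, Clock, Per2, Nr1d2, Egr1, Bglap, Cd79b, Igll1, Rag1, Sec24b, Hspa5, Fgf23, Idi1, Scd1, Ccne2 and those listed for a promoter motif) were named after their values were seen. Results of some genes are not reported here. Alternatives were other scalings, pseudocounts, filters, limma options, a replicate block and leaving out libraries, and those that combine background subtraction with a further change were chosen after seeing the data.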

Additional observations from a re-analysis of the deposited data

How the results depend on the processing

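The count of genes called (10225, with 5964 higher and 4261 lower) moved by over 1.5 times under several settings. Background subtraction gave 3920 (3088 higher, 832 lower), quantile scaling 5016 (2553 and 2463), array quality weights 17589 (9944 and 7645) and MUT replicate 2 alone 4065 (2329 and 1736). The 10 times stricter filter gave 4895 with 910 higher, and total-read scaling gave 11734 higher and 876 lower. Leaving out 1 library gave 4511 to 9776 calls, 2638 to 5840 higher and 1873 to 3936 lower. Of the settings chosen after seeing the data, background subtraction scaled to protein-coding nuclear genes gave 3853 (2830 and 1023) and with MUT replicate 2 alone 4581 (2388 and 2193), and leaving out 1 library gave 1454 to 4913 (1298 to 4052 higher and 156 to 964 lower). The cause of these moves was not tested.

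Twist1 fell by 3.26 on the log2 scale and was not called after background subtraction (−2.96, adjusted p = 0.0522), with MUT replicate 2 alone (−1.31, adjusted p = 0.223), with protein-coding scaling after subtraction (−3.28, adjusted p = 0.0604), or with MUT replicate 2 alone after subtraction (−0.56, adjusted p = 0.558). With 1 library left out it ran from −4.23 to −2.63 in the deposited scaling, and from −4.16 to −1.98 after subtraction, where only the run without MUT replicate 2 was called.

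With replicate numbers as a block, limma was fitted to the WT and MUT libraries alone. It called 12872 genes (7108 higher and 5764 lower) and gave Twist1 an adjusted p of 0.00683. The same libraries without the block gave 14112 calls (7848 higher and 6264 lower). WT and MUT libraries of the same number did not deviate together (correlations −0.053, −0.044 and −0.038 across genes), so no pairing was used. The fit with the block changed the call of none of the 20 named falls and rises. Its list counts in the deposited scaling differed from those of the fit to all 9 libraries. B cell markers called higher went from 3 to 7, endothelial markers called lower from 6 to 10 and ribosomal protein genes called lower from 17 to 29. Whether the block or the absence of the REG libraries moved these counts was not tested.

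Of the 20 named falls and rises, 20 kept their call under quantile and trimmed-mean scaling, no filter and the stricter filter, and 2 lost it under total-read scaling (Ahnak2, adjusted p = 0.0776, and Gvin1, adjusted p = 0.217). Serpina3n lost it with a pseudocount 10 times larger (adjusted p = 0.0513). With MUT replicate 2 alone 4 lost it: Akap2, Serpina3n, Fmo1 and Gvin1. MUT libraries were shallower than WT libraries, and what depth does to the calls of low genes was not tested.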
